A study of Mus musculus with 35 samples.

Results

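The medulla oblongata of SCA7 mice was compared with that of WT mice at 9 weeks of age, the age at which the study called the SCA7 mice preterminal. The comparison took the 10 samples labelled as 9-week medulla, 5 of each genotype and each from a different mouse, out of 35 samples from 18 mice in the series, which also covered cervical spinal cord and younger ages. SCA7 mice carried the SCA7 266Q/5Q genotype, a germline knock-in that expands the CAG repeat of 1 copy of the ataxin-7 gene, and WT mice were their littermates. The same 10 mice gave the 9-week cervical spinal cord. No drug or virus was given, mice of both sexes were used in the study, and the sex of each mouse was not given in the labels.

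Ataxin-7 is a subunit of SAGA (STAGA in mammals), a coactivator complex that modifies histones at gene promoters and helps RNA polymerase II to start transcription. Spinocerebellar ataxia type 7 follows from expansion of its polyglutamine tract. The medulla holds the respiratory rhythm generator and the hypoglossal motor nucleus, whose neurons depend on astrocytes to clear glutamate, glycine and potassium and on oligodendrocytes to wrap their long axons in myelin.

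The 10 samples fell into 2 classes of depth. WT replicates 2 and 5 and SCA7 replicates 4 and 5 held 30555388 to 35889095 gene counts each and are called deep, and the other 6, with 106531 to 396417 counts, are called shallow. A gene with 0 counts could hold up to 0.0705 to 0.0792 CPM (TMM-scaled counts, 1000000 to a sample) in a deep sample, and up to 20.3 to 25.9 CPM in a shallow one (3 counts, counting error only). The depth classes differed in more than depth. Genes of the mitochondrial DNA took 3.50% to 4.0% of the counts in the deep samples and 14.4% to 20.6% in 5 of the 6 shallow ones. SCA7 replicate 2 stood apart with 60.7%, of which COX1 alone gave 25.9% of all counts, and its TMM factor was 0.373 against 0.956 to 1.26 in the other 9 samples. Results are therefore given also without that sample. What sets the depth classes and this sample apart was not tested. The genes of the hindbrain and the transmitter genes of the medulla were present: *Slc6a5*, the glycine transporter of inhibitory neurons, lay between 219 and 374 CPM in the deep samples. Forebrain genes, looked for as absent, were not all so. *Neurod6* lay at 4.46 to 7.55 CPM in the deep samples, and *Tbr1* at 0.305 to 0.449 CPM. The 6 *Hox* genes examined were each lowest among the deep samples in SCA7 replicate 5, and higher in both WT samples than in either SCA7 sample. *Hoxa5* was at 44.6 and 41.4 CPM in the deep WT samples and at 26.2 and 3.99 CPM in SCA7 replicates 4 and 5. *Hoxb8*, a gene of the caudal hindbrain and cord, was at 27.7 and 24.4 CPM in the deep WT samples and at 10.8 and 0.211 CPM in the deep SCA7 samples.

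**Figure D1:**
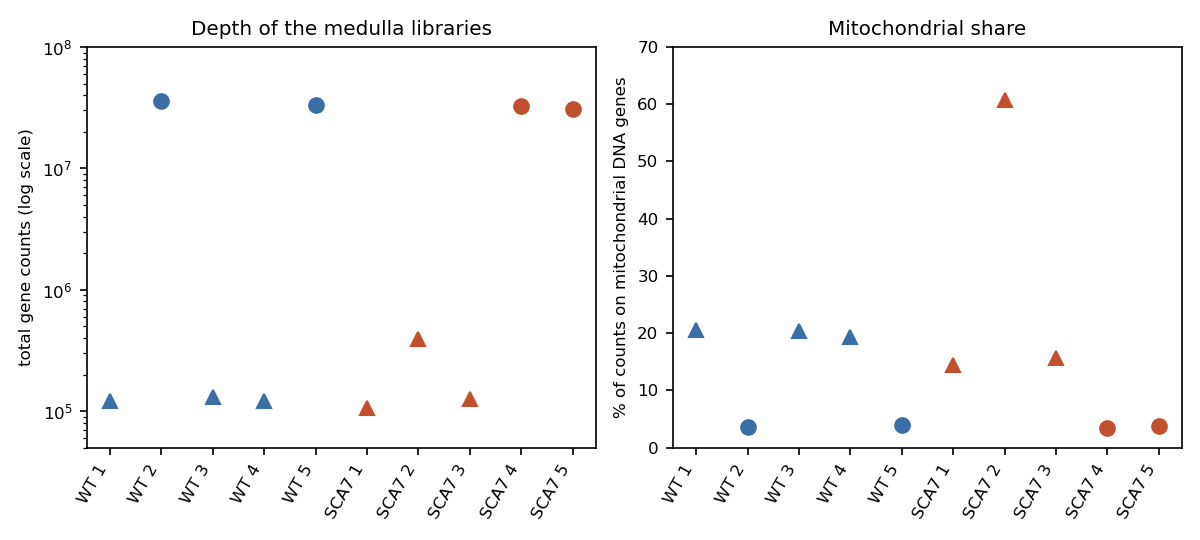
Total gene counts (left, log axis) and percent of counts on the genes of the mitochondrial DNA (right) in each of the 10 medulla samples, WT in blue and SCA7 in orange, with circles for deep and triangles for shallow samples. Both genotypes hold 2 deep and 3 shallow samples, and SCA7 replicate 2 lies at 60.7% while the other 9 lie between 3.50% and 20.6%.

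In SCA7 medulla, genes of astrocytes and of myelinating oligodendrocytes were lower and other genes, among them *Cdkn1a*, *Rbm3*, *Polr2a* and *Apod*, were higher. More genes were lower than higher among those that the shallow samples covered well, and more were higher over all genes. Of 19157 genes tested, 461 were lower and 874 higher by edgeR's quasi-likelihood test at an adjusted p under 0.05, which is 2.41% and 4.56% of the genes (6.97% in all). Because most of these calls concern genes with almost no counts in the shallow samples, 2421 genes whose mean over the shallow samples reached 10 counts, called well covered here, were counted apart: 48 of them were lower (1.98%) and 11 higher (0.454%). Among the 16736 other genes 413 were lower (2.47%) and 863 higher (5.16%), so the excess of higher over lower calls came from genes that the shallow samples hardly measured. The median log2 fold change was 0.08 over all genes and 0.01 over the 2421.

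The 59 well-covered genes were chosen by their call in all 10 samples, so the values within each depth class describe them and are no further test. The fold change had the same sign in the 4 deep and in the 6 shallow samples for 59 of 59 genes, against 1635 of the 2397 well-covered genes with a fold change in both classes (68.2%). For 53 of the 59 all 5 SCA7 samples lay on one side of all 5 WT samples. Over the 2421 genes such a separation was seen for 91 genes downwards (3.76%) and 54 upwards (2.23%). DESeq2 also called 45 of the 59, against 23 of the 1276 genes called outside the well-covered set. It gave no adjusted p to some low genes, such as *Dao* and *Cx3cr1*. A gene without a DESeq2 call, here and below, was therefore not always judged by it. Without SCA7 replicate 2, 56 of the 59 kept their call, and 26 kept it in all 10 fits that each left out 1 sample.

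**Figure D2:**
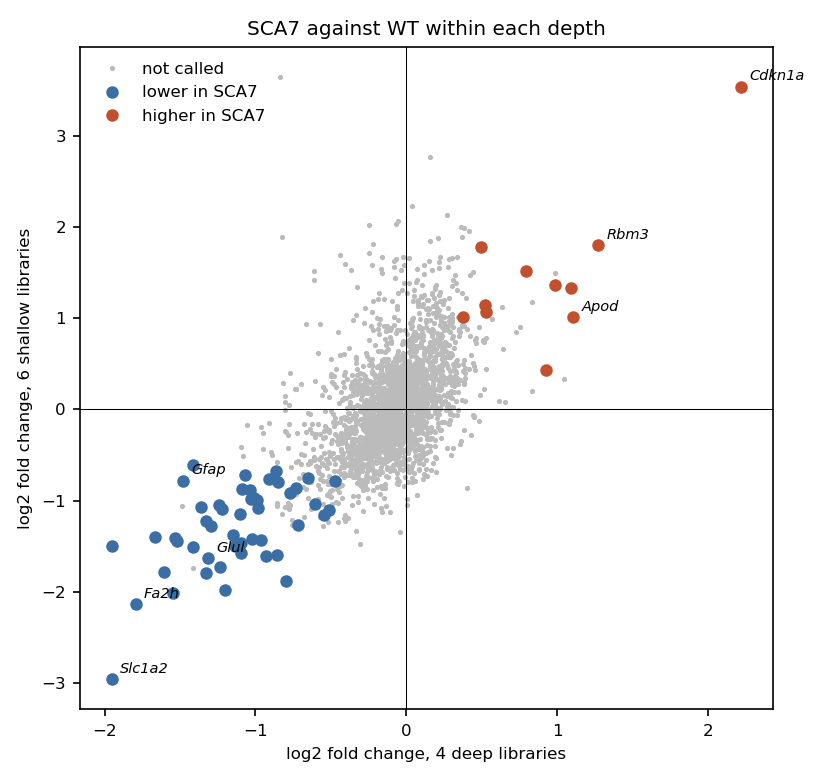
Log2 fold change of SCA7 against WT in the 4 deep samples (x axis) and in the 6 shallow samples (y axis), one point for each of the well-covered genes. All 48 lower genes (blue) lie at the lower left of the origin and all 11 higher genes (orange) at the upper right, with genes not called in grey.

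*Atxn7*, the gene that carries the expanded repeat (chr14:13961283-14107316, GRCm38.p6), was measured at 77.6, 30.7, 15.7, 32.1 and 27.5 CPM in WT replicates 1 to 5 and 58.7, 40.6, 14.6, 37.9 and 45.6 CPM in SCA7 replicates 1 to 5. The groups overlapped, with WT replicate 1 the highest and SCA7 replicate 3 the lowest (log2 fold change 0.29 ± 0.36 SE, adjusted p = 0.75, edgeR). With depth as a block and in the deep samples alone it was called higher in SCA7, at 0.48 and 0.46 (adjusted p = 0.0292 and 0.0347, edgeR). The shallow values rest on 5 counts a sample on average. Counts per gene do not separate the expanded from the normal copy, so this gene does not check the genotype labels.

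A first group of lower genes belongs to the apparatus with which astrocytes take up potassium and transmitter. Of 18 genes of potassium and glutamate clearance, 11 were lower and none higher, with a median log2 fold change of -1.19 against 0.08 over all genes tested. Summed over the list, the genes lay at 7448 to 10612 CPM in WT and 2830 to 4547 CPM in SCA7, without overlap. Here as in every list below, fewer cells of a type and less RNA per cell cannot be told apart in bulk tissue. Each list's count of calls is likewise to be read beside 2.41% lower and 4.56% higher over all genes. *Glul*, glutamine synthetase, which turns captured glutamate into glutamine, was at 2044, 1935, 1502, 1734 and 1743 CPM in WT replicates 1 to 5 and 604, 528, 589.9, 767 and 779 CPM in SCA7 replicates 1 to 5. Its highest SCA7 value, in replicate 5, was below its lowest WT value, in replicate 3 (log2 fold change -1.45 ± 0.19 SE, adjusted p = 0.000415, edgeR). *Kcnj10*, the inward rectifier Kir4.1 that carries potassium into astrocytes, was at 509, 771, 479.6, 345 and 611 CPM in WT replicates 1 to 5 and 209.7, 142, 160.2, 238 and 217 CPM in SCA7 replicates 1 to 5. The groups did not overlap (log2 fold change -1.48 ± 0.24 SE, adjusted p = 0.00203, edgeR). *Slc1a2*, the glutamate transporter GLT-1, was at 1009, 1632, 888, 955 and 1607 CPM in WT replicates 1 to 5 and 168, 88.0, 117, 466 and 409 CPM in SCA7 replicates 1 to 5. It fell the most of the 59 well-covered genes (log2 fold change -2.22 ± 0.41 SE, adjusted p = 0.005, edgeR), and within each genotype the deep samples were higher than the shallow ones. *Atp1b2*, a sodium pump beta subunit, fell with a log2 fold change of -1.30 and *Gja1*, the gap junction protein connexin 43, with one of -1.41 (adjusted p = 0.006 and 0.00309, edgeR).

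Other transporters of this group gave mixed calls. *Slc6a9*, the glycine transporter GlyT1, was at 492, 245, 181, 209 and 219 CPM in WT replicates 1 to 5 and 159, 94.8, 160.2, 102 and 106 CPM in SCA7 replicates 1 to 5. Its groups did not overlap, WT replicate 1 was far above the rest, and the call (log2 fold change -1.13 ± 0.29 SE, adjusted p = 0.029, edgeR) was lost without any 1 of the 4 deep samples. *Slc1a3*, the glutamate transporter GLAST, was at 224, 159, 228, 321 and 179 CPM in WT replicates 1 to 5 and 201, 129, 131, 145 and 139 CPM in SCA7 replicates 1 to 5. Its groups overlapped and it did not pass the test (log2 fold change -0.55 ± 0.23 SE, adjusted p = 0.186, edgeR). *Slc7a10*, a transporter of small neutral amino acids such as D-serine, passed with log2 fold change -1.29 ± 0.34 SE, adjusted p = 0.0333, edgeR, on a mean of 3.83 counts in the shallow samples, and lost its call when SCA7 replicate 3 or any 1 deep sample was left out. *Slc7a11*, the cystine and glutamate exchanger, lay at 33.0 and 32.7 CPM in the deep WT samples and at 16.8 and 12.3 CPM in the deep SCA7 samples (log2 fold change -1.15 ± 0.19 SE, adjusted p = 0.00298, edgeR), and lost its call without any 1 of them.

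**Figure D3:**
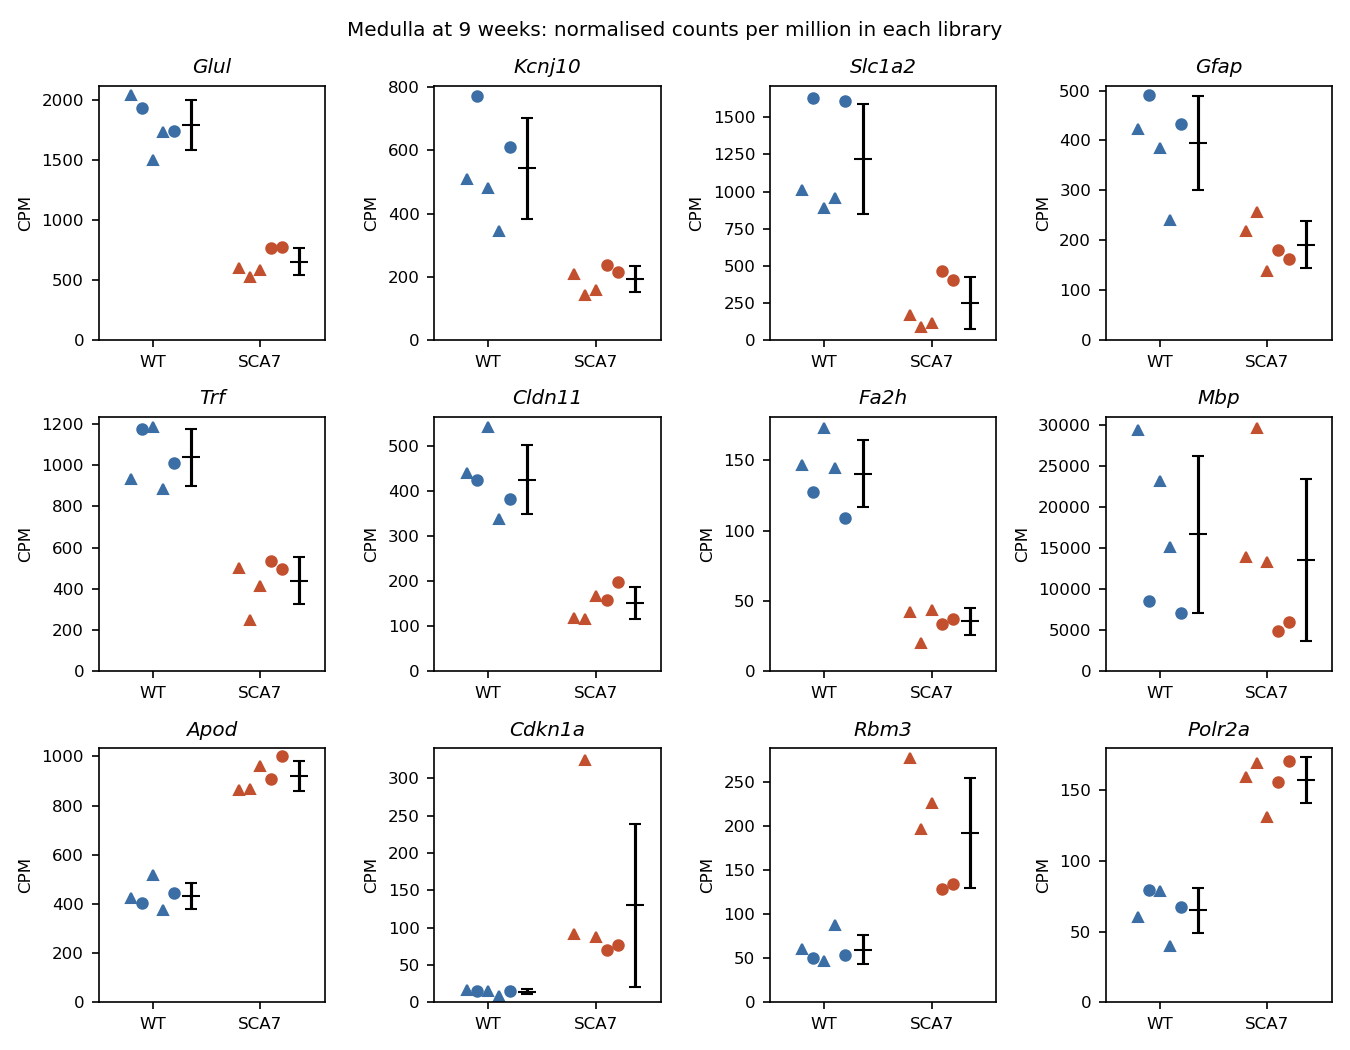
Normalised CPM of 12 genes in the 10 medulla samples, WT in blue and SCA7 in orange, with circles for deep samples and triangles for shallow ones, and the mean ± SD of each group in black. The groups are apart for *Glul*, *Kcnj10*, *Slc1a2*, *Trf*, *Cldn11*, *Fa2h*, *Apod*, *Cdkn1a*, *Rbm3* and *Polr2a*, and overlap for *Gfap* and *Mbp*.

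General markers of astrocytes were lower too. Of 22 genes of astrocyte identity 12 were lower and none higher, with a median log2 fold change of -0.86, and the summed level was 7801 to 9003 CPM in WT and 4537 to 6025 CPM in SCA7. *Ndrg2*, a cytoplasmic protein of mature astrocytes, was at 647, 746, 1053, 891 and 789 CPM in WT replicates 1 to 5 and 302, 413, 269, 285 and 268 CPM in SCA7 replicates 1 to 5. SCA7 replicate 2 was the highest of its group, and even so below every WT sample (log2 fold change -1.43 ± 0.20 SE, adjusted p = 0.000785, edgeR). *Plpp3*, a lipid phosphatase, *Ttyh1*, a chloride channel homologue, and *Mmd2*, a Golgi membrane protein, fell with log2 fold changes of -1.51, -1.10 and -1.50 (adjusted p = 0.00106, 0.0026 and 0.00351, edgeR). *Itih3*, which binds hyaluronan, and *Gpr37l1*, an astrocytic receptor, fell with -1.46 and -1.28 (adjusted p = 0.0037 and 0.00519, edgeR). *Sparcl1*, a secreted synaptogenic protein and the most abundant member, lay at 2047 to 2751 CPM in WT and 819 to 1544 CPM in SCA7 (log2 fold change -0.77 ± 0.21 SE, adjusted p = 0.0382, edgeR), a call that did not hold when WT replicate 1 or any 1 deep sample was left out.

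*Gfap*, the intermediate filament that rises when astrocytes become reactive, was at 423, 491, 385, 241 and 433 CPM in WT replicates 1 to 5 and 218, 257, 138, 182 and 163 CPM in SCA7 replicates 1 to 5. Only WT replicate 4 fell within the range of the SCA7 samples, below SCA7 replicate 2, and the gene was lower (log2 fold change -1.07 ± 0.23 SE, adjusted p = 0.0121, edgeR), a call lost without WT replicate 2 or SCA7 replicate 5. Of 13 genes that mark reactive astrocytes *Gfap* was the only one called and also the only one well covered. The others had a mean under 10 counts in the shallow samples, so their lack of calls says little. The list's median was 0.40, and at an unadjusted p under 0.05 2 of its genes were lower and 4 higher.

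Structural genes of myelin formed the next group. Of 12 such genes 6 were lower and none higher, with 12 of 12 below 0 and a median log2 fold change of -0.93. Their summed levels overlapped, at 16737 to 45756 CPM in WT and 9111 to 37795 CPM in SCA7. *Cldn11*, the claudin that seals the layers of myelin, was at 439.8, 423, 542, 337 and 382 CPM in WT replicates 1 to 5 and 117, 115, 168, 159 and 198 CPM in SCA7 replicates 1 to 5, and all SCA7 values were below all WT values (log2 fold change -1.45 ± 0.21 SE, adjusted p = 0.00106, edgeR). *Tspan2*, a tetraspanin of myelin, and *Opalin*, a glycoprotein of mature oligodendrocytes, fell with log2 fold changes of -0.91 and -0.97 (adjusted p = 0.0151 and 0.0107, edgeR). The first lost its call without either deep WT sample, and the second without any 1 deep sample. *Mbp*, myelin basic protein and the most abundant of the list, was at 29432, 8625, 23137, 15169 and 7109.6 CPM in WT replicates 1 to 5 and 13959, 29658, 13328, 4892 and 5958 CPM in SCA7 replicates 1 to 5. It differed more between depth classes than between genotypes and did not pass the test (log2 fold change -0.30 ± 0.49 SE, adjusted p = 0.821, edgeR). In the deep samples alone both SCA7 values were below both WT values and the gene was called, at -0.60 (adjusted p = 0.0243, edgeR). Without SCA7 replicate 2 its log2 fold change was -0.83 (adjusted p = 0.248, edgeR).

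Genes of lipid assembly and iron handling in mature oligodendrocytes were lower too. Of 26 genes of mature oligodendrocytes 14 were lower and 1 higher, with a median log2 fold change of -0.80 and summed levels of 4575 to 5417 CPM in WT and 3423 to 4461 CPM in SCA7. *Fa2h*, the hydroxylase that makes the fatty acids of myelin galactolipids, was at 147, 128, 173, 144 and 109 CPM in WT replicates 1 to 5 and 41.9, 20.3, 43.7, 33.8 and 37.5 CPM in SCA7 replicates 1 to 5. It had the smallest adjusted p of the 59 genes and its groups lay far apart (log2 fold change -1.95 ± 0.24 SE, adjusted p = 0.00028, edgeR). *Ugt8a*, which adds galactose to the same lipids, lay at 104 to 189 CPM in WT and 6.77 to 41.6 CPM in SCA7 (log2 fold change -2.36 ± 0.33 SE, adjusted p = 0.000909, edgeR), on a mean of 9 counts in the shallow samples. *Trf*, transferrin, the iron carrier that oligodendrocytes secrete, was at 931, 1177, 1187, 883 and 1012 CPM in WT replicates 1 to 5 and 503, 250.5, 415, 534 and 498 CPM in SCA7 replicates 1 to 5, without overlap (log2 fold change -1.23 ± 0.21 SE, adjusted p = 0.00357, edgeR). *Qdpr*, which regenerates tetrahydrobiopterin, and *Gjc3*, connexin 29, fell with log2 fold changes of -1.17 and -1.20 (adjusted p = 0.00328 and 0.0061, edgeR). The 1 higher gene was *Apod*, apolipoprotein D, a lipid-binding protein of oligodendrocytes that rises with age and injury, at 423, 404, 519, 377 and 445 CPM in WT replicates 1 to 5 and 864, 867, 961, 908 and 1003 CPM in SCA7 replicates 1 to 5. Every SCA7 value was above every WT value, with a spread within groups that was small beside the difference (log2 fold change 1.09 ± 0.16 SE, adjusted p = 0.00132, edgeR).

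Transcription factors of the oligodendrocyte lineage, which are not limited to 1 stage, and genes of its precursors were counted in 2 lists. These stand beside 2.41% lower and 4.56% higher over all genes. None of 10 oligodendrocyte transcription factors was lower and 1 was higher (median log2 fold change -0.07): the most abundant, *Olig1*, lay at 112 to 214 CPM in WT and 131 to 250.5 CPM in SCA7 (log2 fold change -0.01 ± 0.23 SE, adjusted p = 0.995, edgeR), and *Zfp488* was higher at 0.91 (adjusted p = 0.0367, edgeR), on under 1 count a shallow sample. Of 15 genes of precursors 2 were lower and none higher (median -0.24). *Gpr17*, a receptor of committed precursors, was at 43.1, 53.1, 62.9, 56.2 and 34.9 CPM in WT replicates 1 to 5 and 0, 13.5, 7.28, 13.2 and 10.4 CPM in SCA7 replicates 1 to 5. Its groups did not overlap (log2 fold change -2.13 ± 0.34 SE, adjusted p = 0.00209, edgeR). *Cspg4*, the proteoglycan NG2, fell with -0.91 (adjusted p = 0.0193, edgeR), and lost the call without any 1 deep sample. *Bcas1*, the most abundant member, was at 289 to 629.5 CPM in WT and 408 to 495 CPM in 4 SCA7 samples, with 1916 CPM in SCA7 replicate 2 (log2 fold change 0.55 ± 0.41 SE, adjusted p = 0.515, edgeR).

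Of 24 genes of cholesterol and fatty acid synthesis, which supplies myelin, 2 were lower and none higher, although 22 of 24 had a log2 fold change below 0 (median -0.52) and the sums did not overlap, with 4917 to 6407 CPM in WT and 2728 to 3817 CPM in SCA7. *Scd2*, the stearoyl-CoA desaturase of brain, was at 3173, 2645, 3349, 2584 and 2377 CPM in WT replicates 1 to 5 and 1577, 643, 1209, 1280.2 and 1307 CPM in SCA7 replicates 1 to 5, all below WT in SCA7 (log2 fold change -1.23 ± 0.23 SE, adjusted p = 0.00594, edgeR). *Cyp51*, lanosterol demethylase, fell with -1.13 (adjusted p = 0.00641, edgeR). Without SCA7 replicate 2, 7 of the 24 were lower and none higher. In all 10 samples, the 2 lower of 24 stand beside 2.41% lower over all genes.

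**Figure D4:**
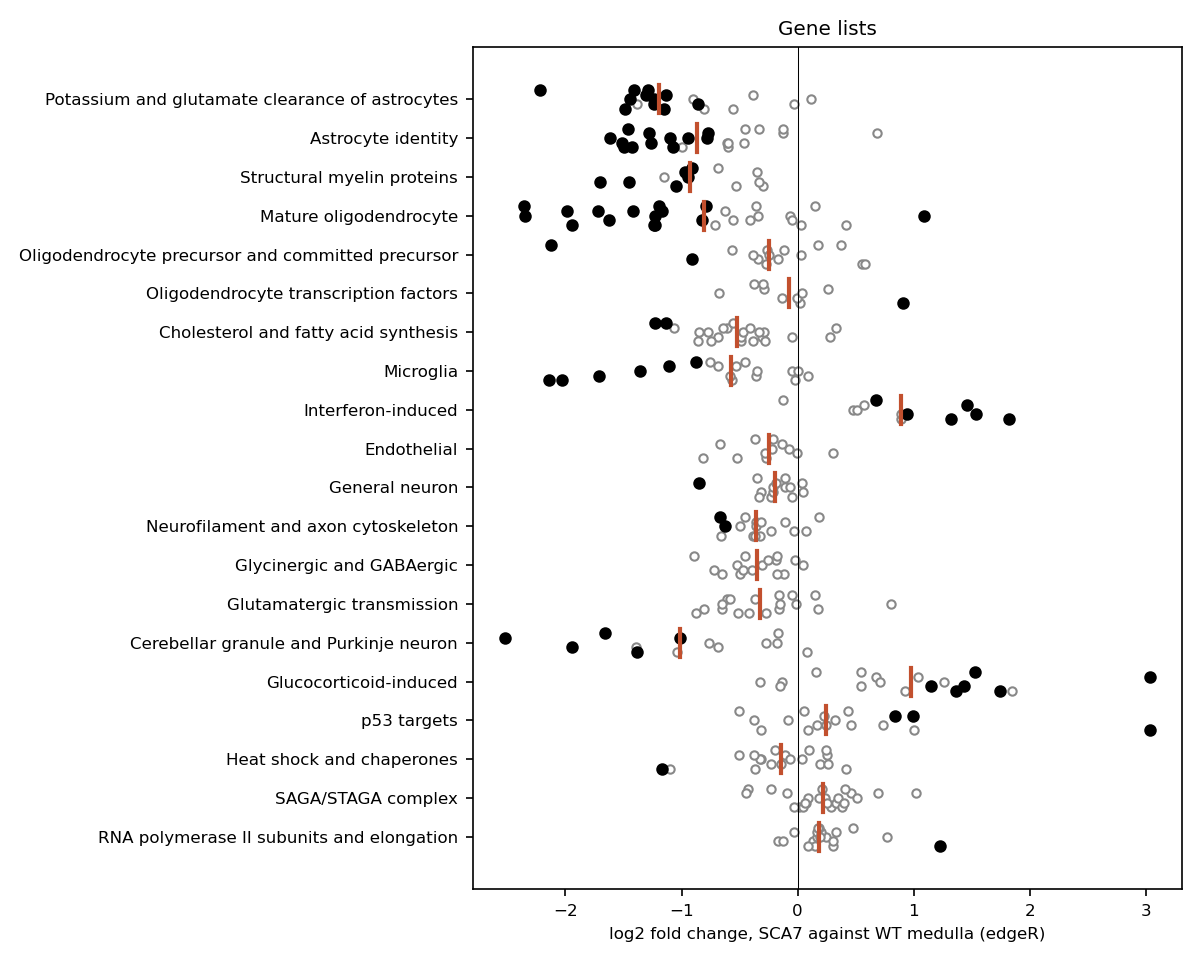
Log2 fold change of each tested member of 20 gene lists, with filled circles for genes past the adjusted p threshold, open circles for the others and an orange bar at the list's median. The astrocyte, myelin and mature oligodendrocyte lists lie left of 0 with medians of -1.19 to -0.80, the interferon and glucocorticoid lists lie right of 0 with medians of 0.89 and 0.98, and the 4 neuronal lists drawn beside the cerebellar one have medians of -0.36 to -0.20.

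Some genes known to respond to growth arrest, cold or stress hormones were higher. *Cdkn1a*, the cell cycle inhibitor p21 and a target of p53, was at 17.2, 15.4, 15.7, 8.03 and 14.8 CPM in WT replicates 1 to 5 and 92.3, 325, 87.4, 70.4 and 76.8 CPM in SCA7 replicates 1 to 5. All SCA7 samples were above all WT samples, and SCA7 replicate 2 was far above the rest of its group (log2 fold change 3.03 ± 0.47 SE, adjusted p = 0.00163, edgeR). Without that sample its log2 fold change was 2.28 (adjusted p = 5.68e-08, edgeR). Of 17 p53 targets tested 3 were higher and none lower (median 0.25), beside 4.56% higher over all genes. The others besides *Cdkn1a* were *Bbc3*, the death factor PUMA, at 0.99, and *Perp*, a desmosomal protein, at 0.84 (adjusted p = 0.0167 and 0.0493, edgeR). Both had a mean under 1 count in the shallow samples. Both were without a call when WT replicate 2 or SCA7 replicate 4 or 5 was left out. *Zmat3*, the most abundant member, was at 55.0 to 147 CPM in WT and 60.9 to 105 CPM in SCA7 (log2 fold change -0.32 ± 0.25 SE, adjusted p = 0.558, edgeR). The sums of the p53 list overlapped, at 275 to 474 CPM in WT and 461 to 704 CPM in SCA7.

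*Rbm3*, an RNA-binding protein induced by mild cold, was at 60.4, 50.1, 47.2, 88.3 and 53.9 CPM in WT replicates 1 to 5 and 277, 196, 226, 129 and 134 CPM in SCA7 replicates 1 to 5. The groups did not overlap, and the shallow SCA7 samples were higher than the deep ones (log2 fold change 1.68 ± 0.28 SE, adjusted p = 0.00258, edgeR). *Cirbp*, its relative, was at 69.0, 66.4, 39.3, 72.2 and 72.8 CPM in WT replicates 1 to 5 and 117, 230.2, 124, 133 and 155 CPM in SCA7 replicates 1 to 5, also without overlap (log2 fold change 1.21 ± 0.24 SE, adjusted p = 0.0083, edgeR). These 2 were the only calls among 5 genes listed for the cold response (median 0.41), beside 4.56% higher over all genes. The most abundant of the 5, *Rtn3*, a reticulon, was at 1006 to 1645 CPM in WT and 332 to 1092 CPM in SCA7 (log2 fold change -0.56 ± 0.29 SE, adjusted p = 0.298, edgeR).

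Of 18 genes that glucocorticoids induce, 6 were higher and none lower (median log2 fold change 0.98), beside 4.56% higher over all genes. Only 8 of the 18 were well covered. Of these 1, *Cdkn1a*, was higher, and their median was 0.61, or 0.14 in the deep samples. The other called members, *Fkbp5* among them, had a mean under 10 counts in the shallow samples. The summed levels overlapped, at 859 to 1276 CPM in WT and 1250 to 2803 CPM in SCA7. *Fkbp5*, the co-chaperone that dampens the glucocorticoid receptor, was at 34.5, 24.4, 0, 8.03 and 27.6 CPM in WT replicates 1 to 5 and 67.1, 81.2, 80.1, 81.7 and 70.4 CPM in SCA7 replicates 1 to 5. Its groups did not overlap (log2 fold change 1.74 ± 0.34 SE, adjusted p = 0.0073, edgeR). *Zbtb16*, a zinc finger factor, and *Pdk4*, which restrains pyruvate oxidation, rose with log2 fold changes of 1.52 and 1.15 (adjusted p = 0.0132 and 0.00812, edgeR). The first lost its call without WT replicate 2, the second without any 1 deep sample. *Mt1*, metallothionein 1, the most abundant, lay at 149 to 228 CPM in WT and 83.9 to 406 CPM in SCA7 (log2 fold change -0.15 ± 0.34 SE, adjusted p = 0.881, edgeR). Without SCA7 replicate 2, 9 of the 18 were higher and 1 lower. *Cdkn1a* is a member of this list as well as of the p53 list.

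Subunits of the complex that holds ataxin-7 were not called. The counts of this paragraph stand beside 2.41% lower and 4.56% higher over all genes. Of 24 genes of SAGA none passed the test, with 5 higher and none lower at an unadjusted p under 0.05 and none by DESeq2 (median 0.22). The summed level was 888 to 1154 CPM in WT and 1204 to 1340 CPM in SCA7, without overlap. *Atxn7l3*, an adaptor of the deubiquitinase module and the most abundant member, lay at 136 to 184 CPM in WT and 185 to 284 CPM in SCA7 (log2 fold change 0.46 ± 0.19 SE, adjusted p = 0.186, edgeR). Of 19 genes of RNA polymerase II and elongation 1 was higher and none lower (median 0.18). That gene was *Polr2a*, the largest subunit of the polymerase, at 60.4, 79.2, 78.6, 40.1 and 67.5 CPM in WT replicates 1 to 5 and 159, 169, 131, 156 and 171 CPM in SCA7 replicates 1 to 5, with every SCA7 value well above every WT value (log2 fold change 1.23 ± 0.21 SE, adjusted p = 0.00335, edgeR).

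The other 6 well-covered higher genes had adjusted p-values close to the threshold. *Scg5*, a chaperone of prohormone convertase, *Tsc1*, which restrains mTOR, and *Ankrd13a*, a ubiquitin-binding protein, rose with log2 fold changes of 0.84, 0.79 and 1.08 (adjusted p = 0.0337, 0.0431 and 0.0435, edgeR). *Eid1*, an inhibitor of p300, *Flna*, the actin crosslinker filamin A, and *Carhsp1*, an RNA-binding protein, rose with 0.71, 0.73 and 1.31 (adjusted p = 0.0463, 0.0466 and 0.0496, edgeR). None of the 6 was called by DESeq2, and each lost its call without several single samples, *Tsc1*, *Ankrd13a* and *Eid1* without any 1 of the 10.

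The promoters of the called genes were searched for common core elements, since ataxin-7 acts in a complex that works at promoters. RefSeq promoters of GRCm38.p6, from 250 bases before to 50 bases after each gene's start, were found for 34 of the 48 lower and 9 of the 11 higher genes. The GC box, GGGCGG on either strand, was present in 61.8% of the lower and 77.8% of the higher genes, against 74.5% of the 1848 well-covered genes with a promoter. The CCAAT box (CCAAT on either strand) was in 44.1%, 22.2% and 41.4%, and the E-box (CACGTG) in 2.94%, 0% and 12.9%. A TATAAA between 45 and 15 bases before the start on the sense strand was in none of the 34, in 1 of the 9 (11.1%) and in 1.68% of the 1848. That 1 gene was *Polr2a*, whose box begins 33 bases before the start. The stretches below run from 150 bases before to 20 bases after the start of 3 lower genes and of *Polr2a*, with GC boxes in capitals in the first 3 and the TATAAA in capitals in the fourth. A match in these letters is a description, not a measured binding site.
Glul (chr1:153899779-153899949, + strand): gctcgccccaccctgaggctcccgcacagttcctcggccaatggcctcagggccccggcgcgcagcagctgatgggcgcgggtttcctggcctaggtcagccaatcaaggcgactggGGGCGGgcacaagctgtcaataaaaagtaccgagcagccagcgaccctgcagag
Kcnj10 (chr1:172341060-172341230, + strand): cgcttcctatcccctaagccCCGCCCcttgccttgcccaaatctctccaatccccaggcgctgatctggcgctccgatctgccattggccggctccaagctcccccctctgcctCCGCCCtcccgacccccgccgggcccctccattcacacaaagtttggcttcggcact
Cldn11 (chr3:31149770-31149940, + strand): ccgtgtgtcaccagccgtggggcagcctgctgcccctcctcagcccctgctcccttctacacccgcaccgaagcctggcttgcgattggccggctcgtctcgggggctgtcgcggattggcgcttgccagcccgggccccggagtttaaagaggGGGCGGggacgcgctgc
Polr2a (chr11:69758613-69758783, - strand): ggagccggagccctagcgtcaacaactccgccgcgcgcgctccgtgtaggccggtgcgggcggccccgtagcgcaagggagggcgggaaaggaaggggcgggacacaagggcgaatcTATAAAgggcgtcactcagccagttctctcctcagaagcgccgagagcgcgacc

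The neuronal lists are read beside 2.41% lower and 4.56% higher over all genes. Of 14 general neuronal genes 1 was lower and none higher (median -0.20): *Snap25*, a protein of synaptic vesicle release and the most abundant, was at 2484, 2492, 2626, 2809 and 2416 CPM in WT replicates 1 to 5 and 2760.0, 941, 2520.0, 2251 and 2439 CPM in SCA7 replicates 1 to 5, with only SCA7 replicate 2 apart (log2 fold change -0.23 ± 0.25 SE, adjusted p = 0.699, edgeR), and *Syn1*, a synaptic vesicle protein, was lower (log2 fold change -0.85 ± 0.21 SE, adjusted p = 0.027, edgeR), a call lost in 7 of the 10 fits that left out 1 sample. Of 16 genes of neurofilaments and the axonal cytoskeleton 2 were lower and none higher (median -0.36), *Tubb4a*, a tubulin also strong in oligodendrocytes, at -0.67, and *Kif5a*, a kinesin of axonal transport, at -0.63 (adjusted p = 0.0283 and 0.0377, edgeR), while *Map1a*, the most abundant, was at 1544 to 2622 CPM in WT and 1361 to 2039 CPM in SCA7. Both calls needed WT replicate 1 and each of the 4 deep samples, and that of *Kif5a* also WT replicate 3.

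No gene was called among 16 glycinergic and GABAergic genes, 18 genes of glutamatergic transmission and 20 voltage-gated channels. At an unadjusted p under 0.05 2, 5 and 4 of them were lower and 0, 1 and 0 higher, DESeq2 called none, and the medians were -0.35, -0.32 and -0.19. The glutamatergic sums did not overlap, with 2476.5 to 2781 CPM in WT and 1638 to 2405 CPM in SCA7, of which the lowest was SCA7 replicate 2. Among the most abundant members, *Slc12a5*, the chloride exporter KCC2, had a log2 fold change of -0.45, and *Camk2b*, a synaptic kinase, one of -0.02. Of 13 genes of cholinergic motor neurons 2 were higher and none lower (median 0.52): *Calca*, the precursor of CGRP, at 1.38, and *Isl1*, a homeodomain factor, at 1.80 (adjusted p = 0.0054 and 0.0105, edgeR). Both had a mean of under 2 counts in the shallow samples, *Calca* lost its call without any 1 deep sample and *Isl1* without WT replicate 2 or SCA7 replicate 2. *Ache*, acetylcholinesterase, the most abundant, was at 144 to 216 CPM in WT and 134 to 176 CPM in SCA7. The 2 well-covered members of the list had a median log2 fold change of -0.51, below 0 unlike that of the whole list, and neither was called.

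Several microglial genes were lower, in calls that rest almost wholly on the deep samples. Of 18 such genes 6 were lower and none higher (median -0.57), beside 2.41% lower over all genes. The summed level was 276 to 362 CPM in WT and 183 to 250 CPM in SCA7. *Cx3cr1*, the fractalkine receptor, was at 23.8 and 21.2 CPM in the deep WT samples and 4.85 and 5.84 CPM in the deep SCA7 samples (log2 fold change -2.03 ± 0.20 SE, adjusted p = 6.73e-05, edgeR). *P2ry12*, the ADP receptor of resting microglia, was at 15.9 and 14.1 CPM against 4.19 and 5.07 CPM (log2 fold change -1.71 ± 0.22 SE, adjusted p = 0.000354, edgeR). *Gpr34*, a lysolipid receptor, and *Tmem119*, a surface marker of microglia, fell with -2.14 and -1.36 (adjusted p = 0.000456 and 0.00248, edgeR). None of these 4 reached a mean of 2 counts in the shallow samples. The first 2 lost their calls without any 1 deep sample and *Tmem119* without SCA7 replicate 5.

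Part of the interferon response was higher in the deep samples. Of 12 such genes 6 were higher and none lower (median 0.89). Both lists of this paragraph are read beside 4.56% higher over all genes. Summed levels overlapped, at 51.7 to 102 CPM in WT and 101 to 148 CPM in SCA7. *Usp18*, which removes the ubiquitin-like ISG15, was at 0.892 and 0.822 CPM in the deep WT samples and 3.71 and 2.51 CPM in the deep SCA7 samples, with no count in any shallow sample (log2 fold change 1.82 ± 0.29 SE, adjusted p = 0.00208, edgeR). *Irf7*, a transcription factor, *Bst2*, which tethers virus particles, and *Ifit1*, which binds foreign RNA, rose with 1.46, 1.54 and 1.32 (adjusted p = 0.005, 0.00669 and 0.00702, edgeR), and each lost its call without SCA7 replicate 4 or 5. *Stat2*, the most abundant, was higher in every SCA7 sample than in every WT sample without passing (log2 fold change 0.89 ± 0.31 SE, adjusted p = 0.114, edgeR). Of 12 cytokine and inflammatory genes 9 could be tested and 2 were higher, the chemokines *Ccl3* and *Ccl2* (2.33 and 1.87, adjusted p = 0.00309 and 0.0373, edgeR), both at no more than 1.0 CPM in every deep sample and without a count in the shallow ones. The call of *Ccl3* was lost without SCA7 replicate 5. That of *Ccl2* was lost without either deep WT sample, with depth as a block (adjusted p = 0.105, edgeR) and in the deep samples alone (adjusted p = 0.147, edgeR). *Nfkbia*, an inhibitor of NF-kappaB and the most abundant, was at 15.7 to 86.2 CPM in WT and 41.9 to 176 CPM in SCA7 (log2 fold change 1.26 ± 0.50 SE, adjusted p = 0.16, edgeR). *Tnf*, *Il6* and *Il10* did not reach 10 counts in any sample.

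Markers of other cells that the dissection could hold were followed as well. Their counts, here and in the next paragraph, stand beside 2.41% lower and 4.56% higher over all genes. Of 13 genes of cerebellar granule and Purkinje neurons 5 were lower and none higher (median -1.01), with sums of 291 to 1132 CPM in WT and 264 to 486 CPM in SCA7. *Car8*, a Purkinje cell protein, was at 8.62, 31.6, 47.2, 144 and 53.3 CPM in WT replicates 1 to 5 and 0, 0, 0, 12 and 9.80 CPM in SCA7 replicates 1 to 5. WT replicate 4 was the highest and no shallow SCA7 sample held a count (log2 fold change -2.52 ± 0.58 SE, adjusted p = 0.017, edgeR, lost without WT replicate 5 or SCA7 replicate 5). *Gabra6*, the granule cell receptor subunit, *Neurod1*, a granule cell factor, and *Ppp1r17*, a Purkinje cell phosphatase inhibitor, fell with -1.38, -1.01 and -1.66 (adjusted p = 0.00499, 0.0156 and 0.0193, edgeR), and each lost its call without SCA7 replicate 4 or 5. *Pvalb*, the most abundant, did not pass (log2 fold change -0.18 ± 0.35 SE, adjusted p = 0.856, edgeR). The part of cerebellar tissue in the astrocyte and oligodendrocyte results was not tested.

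Of 6 red blood cell genes 3 were lower and none higher (median -1.88). The summed level overlapped, at 32.1 to 76.4 CPM in WT and 0 to 88.0 CPM in SCA7, and SCA7 replicate 2 was the highest of all 10 samples. *Alas2*, which starts haem synthesis in red cells, fell with -2.09, *Hba-a1* with -1.92 and *Hbb-bt* with -1.88 (adjusted p = 0.00143, 0.0202 and 0.0305, edgeR). *Hbb-bs*, the most abundant, did not pass (log2 fold change -1.62 ± 0.57 SE, adjusted p = 0.109, edgeR), and reads of the near-identical globin genes could be split among them. None of 12 endothelial genes was called, with 1 lower at an unadjusted p under 0.05 and none by DESeq2 (median -0.25), and *Slc2a1*, the glucose transporter of vessels, was at 93.5 to 129 CPM in WT and 65.5 to 109 CPM in SCA7. Of 10 genes of pericytes and smooth muscle *Cspg4*, given above, was lower and *Tagln*, an actin-binding protein, higher (1.30, adjusted p = 0.00967, edgeR), around a median of -0.05. *Rgs5*, the pericyte regulator and most abundant, had a log2 fold change of -0.73. Of 13 meningeal genes 2 were higher, *Igfbp2*, a carrier of growth factors, and *Ogn*, a small proteoglycan (1.17 and 1.37, adjusted p = 0.0347 and 0.0358, edgeR, median 0.23), and the most abundant, *Ptgds*, prostaglandin D synthase, was at 605 to 956 CPM in WT and 521 to 949.9 CPM in SCA7. Of 7 Schwann cell genes tested 2 were higher, *Egr2* and *Ncmap* (1.59 and 1.21, adjusted p = 0.00859 and 0.0143, edgeR, median 1.21), both under 9 CPM in every sample, while *Fbxo2*, the most abundant, had 0.17. Of 11 choroid plexus and ependymal genes 2 were lower, *Tmem212* and *Ccdc153* of ciliated cells (-2.09 and -1.56, adjusted p = 0.00159 and 0.0235, edgeR, median -0.72). *Ttr*, which the choroid plexus secretes, ranged from 0 to 37.9 CPM in WT and from 2.17 to 129 CPM in SCA7. The calls of *Tagln*, *Igfbp2*, *Ogn*, *Egr2*, *Ncmap*, *Hba-a1* and *Hbb-bt* were each lost without WT replicate 2, WT replicate 5 or SCA7 replicate 4. That of *Egr2* was also lost with depth as a block and in the deep samples alone (adjusted p = 0.0647 and 0.0755, edgeR).

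Of 15 genes of serine, glycine and D-amino acid metabolism 2 were lower and 1 higher (median -0.12), beside 2.41% lower and 4.56% higher over all genes. *Dao*, D-amino acid oxidase, which hindbrain astrocytes use to degrade D-serine, was at 8.62, 32.4, 23.6, 16.1 and 24.0 CPM in WT replicates 1 to 5 and 0, 0, 0, 3.90 and 3.70 CPM in SCA7 replicates 1 to 5. The shallow WT values are 1 to 3 counts and the shallow SCA7 samples held none, which is within the limit that 0 counts allow there, so the difference rests on the deep samples, where SCA7 was several times lower (log2 fold change -2.86 ± 0.21 SE, adjusted p = 1.4e-05, edgeR). *Gamt*, which completes creatine synthesis, was at 34.5, 14.1, 7.86, 8.03 and 12.5 CPM in WT replicates 1 to 5 and 0, 0, 0, 2.91 and 2.59 CPM in SCA7 replicates 1 to 5, with the same pattern (log2 fold change -2.31 ± 0.22 SE, adjusted p = 6.73e-05, edgeR). *Shmt1*, a cytosolic enzyme between serine and glycine, was higher at 1.37 (adjusted p = 0.0134, edgeR), on 1 count in all shallow samples, and *Psat1*, the most abundant, which makes serine, was at 128 to 172 CPM in WT and 156 to 207 CPM in SCA7. Of the other genes with under 10 shallow counts and separated groups, *Kcnk13*, a potassium channel, *Arhgef19*, a guanine nucleotide exchange factor, and *Btbd17* fell the most clearly (-2.48, -1.47 and -2.18, adjusted p = 2.82e-05, 3.06e-05 and 6.73e-05, edgeR). Upwards, *Sult1a1*, a sulfotransferase, was at 17.2, 6.90, 0, 16.1 and 7.84 CPM in WT replicates 1 to 5 and 25.2, 54.2, 29.1, 29.0 and 26.3 CPM in SCA7 replicates 1 to 5, with no overlap (log2 fold change 1.93 ± 0.17 SE, adjusted p = 3.39e-05, edgeR). *Ovgp1*, *Acy3*, an aminoacylase, *Zfand4* and *Ccnd2*, cyclin D2, rose with log2 fold changes of 1.51, 1.32, 1.24 and 0.97 (adjusted p = 0.000418, 0.00124, 0.00255 and 0.00287, edgeR). The calls of *Ovgp1*, *Acy3*, *Zfand4*, *Ccnd2*, *Arhgef19* and *Sult1a1* were lost without either deep WT sample. Deep SCA7 samples mattered too: the calls of *Acy3* and *Ccnd2* were lost without SCA7 replicate 4 or 5, and those of *Arhgef19* and *Btbd17* without SCA7 replicate 5.

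The same shares of all genes stand beside the stress and clock lists. Of 19 heat shock and chaperone genes 1 was lower (median -0.14), *Hsph1*, a large co-chaperone (log2 fold change -1.17 ± 0.27 SE, adjusted p = 0.0188, edgeR, lost without either deep WT sample), and *Hspa8*, the constitutive HSC70 and most abundant, was at 922 to 1431 CPM in WT and 745 to 1238 CPM in SCA7. Of 17 genes of the unfolded protein response 1 was lower (median -0.25), *Sdf2l1* of the endoplasmic reticulum (-0.96, adjusted p = 0.0072, edgeR), and *Hsp90b1* had -0.28. Of 16 immediate early genes 2 were higher (median 0.17), *Maff*, a small Maf factor, at 1.62 and 1.15 CPM in the deep WT and 12.7 and 11.3 CPM in the deep SCA7 samples (log2 fold change 3.21 ± 0.32 SE, adjusted p = 7.42e-05, edgeR), and *Egr2*, given above with the samples its call needs, while *Jund*, the most abundant, had 0.27. Of 16 clock genes 1 was lower and 1 higher (median -0.10): *Dbp*, an output factor of the clock, was at 51.7, 73.7, 62.9, 64.2 and 76.0 CPM in WT replicates 1 to 5 and 0, 40.6, 14.6, 28.2 and 26.5 CPM in SCA7 replicates 1 to 5, without overlap (log2 fold change -1.45 ± 0.34 SE, adjusted p = 0.0189, edgeR), and *Cry1*, a repressor of the clock, rose (log2 fold change 1.15 ± 0.28 SE, adjusted p = 0.0214, edgeR). Both lost their calls without any 1 deep sample. The time of day of dissection was not given in the sources used here. *Tef*, the most abundant clock gene, had -0.09.

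Of 9 sodium pump subunits 3 were lower and none higher (median -0.37), among them *Atp1b2*, given above, and *Fxyd1*, a regulatory subunit (-0.65, adjusted p = 0.0241, edgeR). Of 16 matrix genes 1 was lower (median -0.17), *Acan*, aggrecan of perineuronal nets (-0.86, adjusted p = 0.0332, edgeR), and *Spock2*, the most abundant, had -0.37. Over all genes 2.41% were lower and 4.56% higher, and the counts of this paragraph stand beside these shares. Of 19 monoamine and neuropeptide genes tested 1 was lower and 1 higher (median 0.14). *Nts*, neurotensin, fell with -0.94 (adjusted p = 0.0214, edgeR). *Slc6a3*, the dopamine transporter, a marker of midbrain neurons, rested on 1 sample, SCA7 replicate 5, at 23.1 CPM against 0.0705, 0.398 and 0.752 CPM in the other deep samples and no count in the shallow ones. That sample also held the lowest *Hox* levels among the deep samples, as given above, and the part of the level of dissection in the results was not tested. The calls of *Fxyd1*, *Acan* and *Nts* were each lost without any 1 deep sample.

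No gene was called among 13 genes of the mitochondrial DNA, 24 nuclear genes of oxidative phosphorylation, 24 genes of cytosolic ribosomal proteins or 20 of ubiquitin and the proteasome. At an unadjusted p under 0.05 1, 0, 6 and 0 of them were higher and none lower, DESeq2 called none, and the medians were 1.53, 0.02, 0.56 and 0.20. The mitochondrial median was -0.81 without SCA7 replicate 2 and -0.22 in the deep samples, so its sign rested on that sample. The ribosomal sums did not overlap, with 3136 to 3939 CPM in WT and 4182 to 9247 CPM in SCA7, and without SCA7 replicate 2 the median was 0.21. Among the most abundant, *COX1* had a log2 fold change of 1.51, *Atp5b* one of -0.13, *Rpl4* one of 0.56 and *Ubb* one of 0.26, none past the test.

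The change in the medulla was set beside that in the cervical spinal cord of the same mice. The 59 well-covered genes had the same sign in the cord for 59 of 59, against 1380 of all 2421 well-covered genes (57%), in tissue from the same mice. The difference between tissues, tested as the interaction of genotype and tissue with the mouse as a block, was called for 1 of them, *Gfap*. Over all genes it was called for 551 of 19838 (2.78%). *Gfap* fell by 2.28 on the log2 scale in the cord and by 1.07 in the medulla, a difference of 1.16 ± 0.28 (SE, adjusted p = 0.0244, edgeR). That call did not hold when WT replicate 1, 4 or 5, either deep SCA7 sample or the mouse block was left out. *Slc1a2* changed by -1.72 in the cord and by -2.22 in the medulla, with no call for the difference. *Cdkn1a* was at 3.03 in the medulla and at 1.27 in the cord, where it did not pass (adjusted p = 0.146, edgeR), and the difference was not called either (adjusted p = 0.0631, edgeR). The microglial list had medians of -0.57 in the medulla and -1.34 in the cord, and the meningeal list 0.23 and -3.17.

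**Figure D5:**
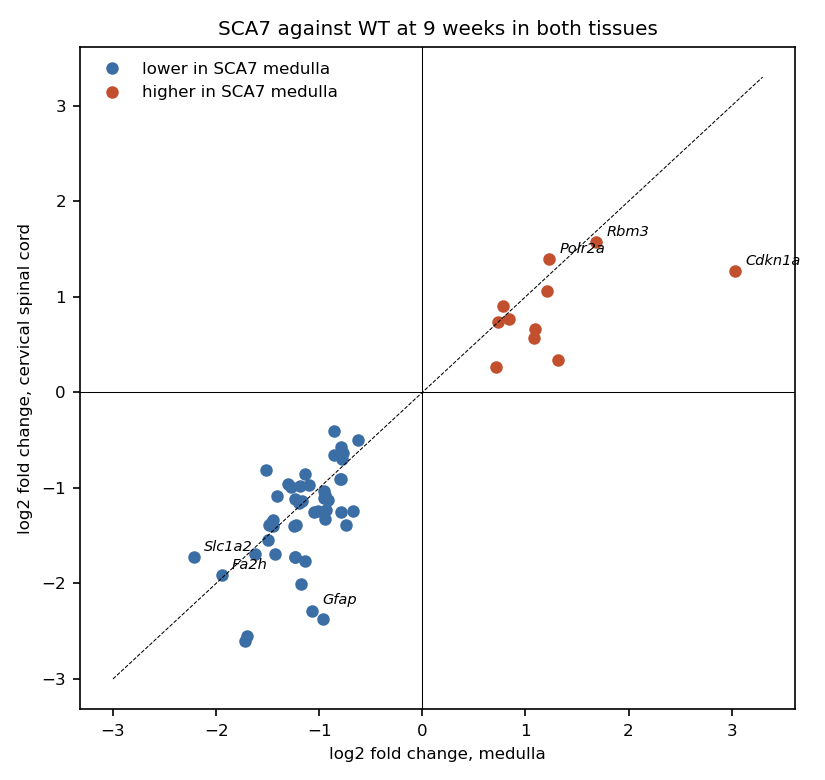
Log2 fold change of SCA7 against WT at 9 weeks in the medulla (x axis) and in the cervical spinal cord (y axis) for the 59 well-covered genes called in the medulla, 48 lower in blue and 11 higher in orange, with a dashed line where both are equal. All points lie at the lower left or the upper right of the origin, and *Gfap* lies below the line, at -1.07 in the medulla and -2.28 in the cord.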

How the data were processed

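The medulla of 5 SCA7 and 5 WT mice at 9 weeks was profiled by RNA sequencing. Per the study's methods, tissue was flash frozen, reads were mapped to the mouse genome (GRCm38v73; mm10 per the labels), reads mapping to 1 location were kept, and the authors deposited raw counts per gene symbol, 1 file per sample. The kit is a Qiagen RNeasy mini kit per the labels and a miRNeasy kit per the study's methods. The counting program and its use of strand are not given in the sources used here, so overlapping and antisense genes may share counts.

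Genes that reached 10 counts in any of the 10 samples were tested in edgeR 4.0.16 (TMM scaling, quasi-likelihood test with the settings of earlier releases, R 4.3.3), with Benjamini-Hochberg adjustment over all genes tested and a threshold of 0.05. The study used DESeq2, which was run as an alternative (version 1.42.0). As run here, DESeq2 gave no adjusted p to some genes with low counts, and these were counted as not called. Only the 10 medulla samples entered this fit. SE is the log2 fold change divided by the square root of the F statistic. CPM are counts per 1000000 after TMM scaling, so a sample with a small TMM factor can exceed its raw share. Deep samples hold over 1000000 counts, and genes whose mean over the other 6 reached 10 counts are called well covered. The difference from the cervical spinal cord was tested in edgeR on the 20 samples of both tissues, with the mouse as a block. Alternatives were other scalings, filters and tests, each depth class alone, depth or replicate number as a block, and leaving out each sample.

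The 41 gene lists and the comparison itself were chosen with earlier results of these data known. Named were *Atxn7*, genes the study's text names, and the 20 lower and 11 higher well-covered genes with the smallest adjusted p. To these were added 5 lower and 5 higher of the other called genes with separated groups. The most abundant and up to 4 called members of each list were also named. *Hoxa5*, *Hoxb8*, *Slc6a5*, *Neurod6*, *Tbr1*, *Tnf*, *Il6* and *Il10* were named after their values were seen. Some genes that these rules name are not reported here. Positions and promoters come from RefSeq (GRCm38.p6), matched by symbol for 32501 of 35976 symbols. Replicates are different mice per the labels. Samples of 1 group and depth differed by more than counting error (chi-square per degree of freedom 1.12 to 41.2), so each was counted once as its own replicate.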

Additional observations from a re-analysis of the deposited data

Results flagged for a closer look

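Single samples that lay far from the other 4 of their group were sought by Dixon's ratio (above 0.71) among the named genes. Of 254 groups examined 46 held such a sample, and chance alone would give about 1 in 20, although low genes in shallow samples take only a few whole-count values. SCA7 replicate 2, with 60.7% of its counts on mitochondrial genes, accounted for most. It was the highest SCA7 sample, with the next value in brackets, for *COX1* at 696028 CPM (66787), *Bcas1* at 1916 (495), *Rpl4* at 846 (546), *Carhsp1* at 508 (185), *Ndrg2* at 413 (302), *Mt1* at 406 (160.2), *Cdkn1a* at 325 (92.3) and *Jund* at 305 (150.4). It was likewise the highest for *Ankrd13a* at 223 CPM (126), *Nfkbia* at 176 (58.3), *Zbtb16* at 176 (86.0), *Ttr* at 129 (36.4), *Sult1a1* at 54.2 (29.1), *Ovgp1* at 40.6 (20.7), *Hba-a1* at 20.3 (3.20), *Bbc3* at 13.5 (8.39) and *Isl1* at 13.5 (3.15). The same sample was the lowest for *Snap25* at 941 CPM (2251), *Sparcl1* at 819 (1453), *Rtn3* at 332 (926), *Slc12a5* at 189.5 (445), *Psat1* at 156 (196), *Zmat3* at 60.9 (92.3) and *Plpp3* at 33.8 (58.3). The part of RNA quality or of the tissue piece in this was not tested.

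WT replicate 1 was the highest WT sample for *Slc6a9* at 492 CPM (next 245), *Nfkbia* at 86.2 (24.4), *Atxn7* at 77.6 (32.1), *Btbd17* at 60.4 (24.6), *Gamt* at 34.5 (14.1), *Hba-a1* at 17.2 (8.37) and *Ncmap* at 8.62 (2.14), and the lowest for *Opalin* at 0 CPM (23.6). WT replicate 3 was the highest for *Plpp3* at 212 CPM (161) and for *Irf7*, *Isl1*, *Maff* and *Shmt1*, each at 7.86 CPM, which is 1 count, and the lowest for *Cirbp* at 39.3 CPM (66.4). WT replicate 4 was the lowest for *Cdkn1a* at 8.03 CPM (14.8) and the highest for *Sdf2l1* at 16.1 (9.69). *Slc6a3* was highest in WT replicate 5 at 0.398 CPM (0.0705) and in SCA7 replicate 5 at 23.1 CPM (0.752), where *Hbb-bt* was also highest at 4.49 CPM (0.849). SCA7 replicate 1 was highest for *Slc1a3* at 201 CPM (145) and *Tef* at 268 (221), and SCA7 replicate 3 lowest for *Mmd2* at 14.6 CPM (40.6).

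The change in the medulla differed from that in the cervical spinal cord of the same mice for 12 of the named genes by edgeR's interaction test. Given as the log2 change in the medulla minus that in the cord, with edgeR's adjusted p, the well-covered gene was *Gfap*, at 1.16 (0.0244). The others rest on few counts in the shallow samples. They were higher for *Ogn* at 6.04 (2.23e-08), *Egr2* at 4.69 (0.000302), *Tagln* at 4.50 (2.07e-08), *Slc7a11* at 2.42 (4.59e-06), *Igfbp2* at 2.10 (0.000148), *Perp* at 2.01 (0.00206), *Calca* at 2.0 (1.04e-05), *Bst2* at 1.71 (0.0258) and *Sult1a1* at 0.90 (0.0454), and lower for *Ppp1r17* at -3.87 (0.000926) and *Car8* at -2.36 (5.05e-05). *Ogn*, *Tagln* and *Igfbp2* are markers of meninges and vessel walls, and the meningeal list had a median of 0.23 in the medulla and -3.17 in the cord. *Car8* and *Ppp1r17* mark Purkinje cells, which the cord does not hold. Without WT replicate 5 the difference was called for *Tagln* alone of the 12. With no mouse block it was called for *Egr2* and *Tagln* alone. Leaving out SCA7 replicate 4 lost the calls of *Bst2*, *Gfap*, *Perp*, *Slc7a11* and *Sult1a1*. Leaving out SCA7 replicate 5 lost those of *Bst2*, *Calca*, *Car8*, *Gfap*, *Igfbp2*, *Perp* and *Sult1a1*.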

How the results depend on the processing

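The counts of calls depended on the processing far more than the direction of single genes did. In the order lower and higher over all genes, then lower and higher among well-covered genes, edgeR gave 461, 874, 48 and 11. DESeq2 gave 55, 16, 40 and 5, library totals in place of TMM 271, 757, 15 and 2, no filter 347, 666, 39 and 5, and at least 10 counts in every sample 15, 2, 15 and 2 of 1317 genes. EdgeR's newer bias-adjusted quasi-likelihood test gave 17, 4, 15 and 4, depth as a block 1029, 1385, 169 and 87, the deep samples alone 1695, 1286, 403 and 98, and the shallow samples alone 2, 0, 1 and 0, with 210 and 142 genes higher at an unadjusted p under 0.05 in edgeR for the 2 counts of 0. All 48 lower and 11 higher well-covered genes were among those called with depth as a block and in the deep samples alone. The size factors of DESeq2 gave 514, 884, 52 and 10. Leaving the 13 mitochondrial genes out of the library sizes, an alternative chosen after seeing the data, gave 441, 855, 52 and 11. The cause of these differences was not tested.

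Leaving out 1 sample at a time gave 126 to 651 lower and 313 to 941 higher genes, and 21 to 76 and 5 to 15 among the well-covered ones. The lowest counts came without SCA7 replicate 5 (126 lower, 334 higher, 26 and 5) and WT replicate 2 (188, 313, 21 and 5). Counts without WT replicate 5 were 230, 447, 26 and 6, without SCA7 replicate 4 266, 508, 28 and 6, and without SCA7 replicate 2 651, 786, 76 and 15. Of the called genes named in the text, 37 well covered and 57 not, 14 and 46 lost their call without at least 1 sample, 12 and 40 of them without SCA7 replicate 5. The difference between tissues was called for 551 genes, for 11 to 677 with 1 mouse left out (11 without WT replicate 5, 289 without SCA7 replicate 4, 282 without SCA7 replicate 5), for 100 without the mouse block, for 754 with depth beside it, and for 0 of the 1004 genes with at least 10 counts in every sample (72 at an unadjusted p under 0.05, edgeR). *Ttr*, not called in the comparison itself, changed sign and was called at -1.50 with depth as a block.

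Replicate numbers were shared by the genotypes but belong to different mice, and the deviations of same-numbered samples correlated at 0.55, -0.63, 0.59, -0.77 and 0.92 for numbers 1 to 5. The correlation was positive for numbers 1, 3 and 5, where both samples were of the same depth class. It was negative for numbers 2 and 4, where 1 sample was deep and the other shallow. Because the sign followed depth, these values cannot show whether the numbers pair the samples. With the replicate number as a block, 151 genes were lower and 210 higher, 35 and 15 among the well covered. The shallow depth limits the low genes: 1 count there is 6.77 to 8.62 CPM, so differences below that level were not detectable in 6 of the 10 samples.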
